A study of Homo sapiens with 8 samples.

Results

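The salt-inducible kinases, their CRTC substrates and the cAMP-degrading PDE4 enzymes were examined here as carriers of N6-methyladenosine (m6A) in melanoma cells. The set holds 10 genes: SIK1, SIK2 and SIK3, the coactivators CRTC1, CRTC2 and CRTC3, the transcription factor CREB1, and the phosphodiesterases PDE4B, PDE4C and PDE4D. They were chosen by their rows in the m6A peak lists of these libraries, with their scores already known, so the scores below are a description of the set and not a test of it. Of 10077 genes with a peak in at least 1 group, 9295 carried one in shNC cells and 9474 in shFTO cells. In the set, 9 of the 10 genes were in the shNC list and all 10 in the shFTO list, with 20 peaks of 19072 and 20 of 18551. PDE4C was the gene without a row in the shNC list.

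The libraries came from Mel624, an established human melanoma line. The cells carried a lentiviral short hairpin RNA that was either a control (shNC) or directed against FTO (shFTO). The labels name no other treatment, and according to the methods infected cells were selected with puromycin. FTO is an enzyme that removes m6A from RNA. Each group had 2 replicates, and every replicate was sequenced as m6A immunoprecipitate (IP) and as input, which makes 8 libraries. The labels do not say whether the replicates were separate cultures, so the spread given below may be technical. The peak lists hold FTO itself with 3 peaks in shNC and 2 in shFTO, but no mRNA levels, so the knockdown was not checked here. All 7 melanocyte lineage genes examined (MITF, SOX10, PMEL, MLANA, TYR, DCT and TYRP1) had peaks in both lists, and 0 of 6 markers of other cell types had one in either.

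In melanocytes, the hormone receptor MC1R raises cAMP through the G protein Gs and adenylyl cyclase. cAMP frees protein kinase A, which phosphorylates CREB1 and also the SIK kinases, and phosphorylated SIKs no longer hold the CRTC coactivators in the cytoplasm, so that CREB1 with CRTCs turns on genes such as MITF, the master regulator of pigment cells. PDE4 enzymes hydrolyse cAMP and end the signal. m6A is written by the METTL3 complex on adenosines within a short consensus whose commonest form is GGACU, and in mRNA it is concentrated in long exons and around stop codons.

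The GGACU sites that lay within the peaks are shown first, as the sequence feature that the lists give for a peak. The peak lists named 16 such sites in 9 of the 10 genes, and no site in PDE4D. All 16 were placed at 1 position each on transcripts of the same gene (GENCODE version 44, hg38). Of these, 11 lay in coding sequence and 5 in the 3′UTR, 13 lay in the last exon, and 6 lay in the final 100 nt before the end of the stop codon. The lists of both groups held 13 of the sites, and 3 were in the shFTO list only. Of these, 1 was in CREB1 and 2 were in PDE4C, which had no row in the shNC list. The share over all sites of the lists was not computed, so nothing is read from this count. In the windows of the sites below, read from hg38 on the strand of the gene, the capitals mark the motif as DNA (GGACT for GGACU). The CRTC2 stretch was taken from its transcript and not read back from hg38.

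The site next to the stop codon is shown for SIK1, SIK2, CRTC1 and CRTC3, because the stop-codon peaks of SIK1, CRTC3 and their relatives are compared below. No such site was listed for SIK3 or CRTC2, and for CRTC2 the matching stretch is shown.
SIK1, chr21:43416786-43416814, minus strand, coding sequence of exon 14 of 14: gctgctgcagggGGACTgtgagatggagg
SIK2, chr11:111724049-111724077, plus strand, coding sequence of exon 15 of 15: tctgagctacctGGACTctttgattgtga
CRTC1, chr19:18777290-18777318, plus strand, coding sequence of exon 14 of 14: ctgaccctcgacGGACTgcacatgctcaa
CRTC3, chr15:90642048-90642076, plus strand, coding sequence of exon 15 of 15: ctgagcctggacGGACTcaacatgttaag
CRTC2, chr1:153948176-153948204, minus strand, the stretch most like those of CRTC1 and CRTC3: ctgggcctggaaGGGCTaaacatgctgag
The motif of SIK1 began 60 nt before the end of the stop codon and that of SIK2 68 nt before it. In CRTC1 and CRTC3 it began 80 nt before the end of the stop codon in both, and 22 of the 29 bases of the windows were identical. The CRTC2 window, found by sliding up to 10 nt around the same distance, lay 83 nt before the end of its stop codon and shared 20 of 29 bases with CRTC1 and 23 with CRTC3. Its capitals mark the bases that align with the motif, and it holds no GGACU.

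The sites of CREB1, PDE4B and PDE4C, together with a 3′UTR site of SIK2 and an internal-exon site of SIK3, are shown because the list membership or the score of their peaks is described below.
CREB1, chr2:207597084-207597112, plus strand, 3′UTR in exon 8 of 8: aaggtggaaaatGGACTggcttggccaca
PDE4B, chr1:66372462-66372490, plus strand, coding sequence of exon 17 of 17: cgagcagaacagGGACTgccagggtctga
PDE4C, chr19:18210943-18210971, minus strand, coding sequence of exon 15 of 15: cccagaccctggGGACTtacccctcgaca
PDE4C, chr19:18210920-18210948, minus strand, coding sequence of exon 15 of 15: tcgacaaccagaGGACTtagggccagccc
SIK2, chr11:111724825-111724853, plus strand, 3′UTR in exon 15 of 15: agaatatactcaGGACTccagaggtgtca
SIK3, chr11:116858014-116858042, minus strand, coding sequence of exon 21 of 25: gagcatggaggaGGACTgctcgtgtgagg
The CREB1 site began 38 nt past the stop codon. The PDE4B site lay 204 nt before the end of the stop codon, and the sites of PDE4C began 30 nt and 7 nt before it. The motif of the latter ended directly before the stop codon. The 3′UTR site of SIK2 shown began 708 nt past the stop codon. SIK3 was the exception among the kinases, with both of its sites far upstream of the stop codon, 1055 nt and 675 nt before its end, in an internal exon of 890 nt.

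**Figure D1:**
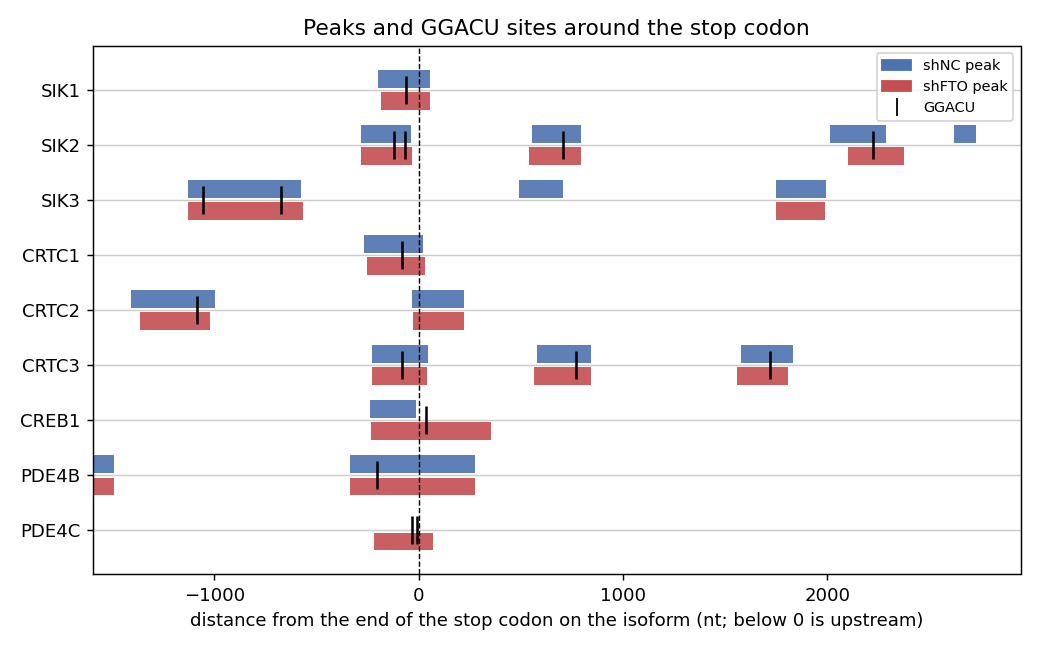
Peaks of 9 genes on the isoform of the lists, with the distance from the end of the stop codon in nt on the x axis, shNC peaks in blue, shFTO peaks in red and GGACU sites as black ticks. Peaks of SIK1, CRTC1, CRTC2, CRTC3 and PDE4B lay across the stop codon in both groups, the shNC peak of CREB1 ended before it, and PDE4C had a peak in shFTO only. PDE4D, with no site to anchor it, is not drawn.

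GGACU was held by 11 of the 20 shNC peaks of the set (55.0%) and by 13 of the 20 shFTO peaks (65.0%), beside 36.3% and 38.1% of all peaks. By region, the shNC peaks of the set were 8 in coding sequence, 5 at the stop codon and 7 in the 3′UTR, and the shFTO peaks were 7, 7 and 6. Over all peaks the shares were 32.7%, 19.4% and 21.8% in shNC and 32.1%, 20.0% and 21.2% in shFTO. The stop-codon peaks of the shFTO list alone were those of CREB1, whose shNC peak ended in coding sequence, and of PDE4C, not listed in shNC. No peak of the set lay in a 5′UTR or at a start codon, regions that held 1252 and 3163 of all 19072 shNC peaks. The score used throughout is the authors' log2 enrichment score, which sets the IP reads in a peak against the median window of the same mRNA and divides this by the same quotient in the input. The score compares a place with the remainder of the transcript, and a change in the median window would move it as well. The median score of the set was 3.84 in shNC and 4.11 in shFTO, beside 2.55 and 2.52 over all peaks, and 15 of 20 and 14 of 20 peaks were above the median of their list. Replicates differed more in the set than in general, with a median SD of 0.39 in shNC and 0.27 in shFTO, beside 0.23 and 0.22 over all peaks. Read counts were not given with the scores, and their depth is unknown.

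To compare the groups, peaks of both lists on the same isoform that overlapped by at least 1 base, and each overlapped no other peak, were taken as pairs. This gave 12117 pairs in 7834 isoforms, with a median difference (shFTO minus shNC) of −0.01, 5862 above 0 and 6255 below. The set gave 14 pairs in 8 genes, with a median of −0.20 and a range of −0.66 to 1.83, 4 above 0 and 10 below. With limma and Benjamini-Hochberg adjustment over all pairs, 0 of the 14 passed an adjusted p of 0.05, as did 0% of all pairs, and the lowest adjusted p was 0.566 in the set and 0.285 over all. At an unadjusted p of 0.05, 1 pair of the set was higher in shFTO and 0 lower, where 2.3% and 3.68% of all pairs were. Both shFTO replicates were above both shNC replicates in 2 pairs, at the stop codons of SIK1 and CRTC3, and below them in 3, in SIK2, CRTC2 and PDE4B, where 15.7% and 17.7% of all pairs were so ordered. In the remaining 9 pairs the groups overlapped. The counts by threshold and by replicate order are close to those of all pairs, and the split around 0 leaned further below. The set was chosen with the scores known, so nothing is read from any of them.

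**Figure D2:**
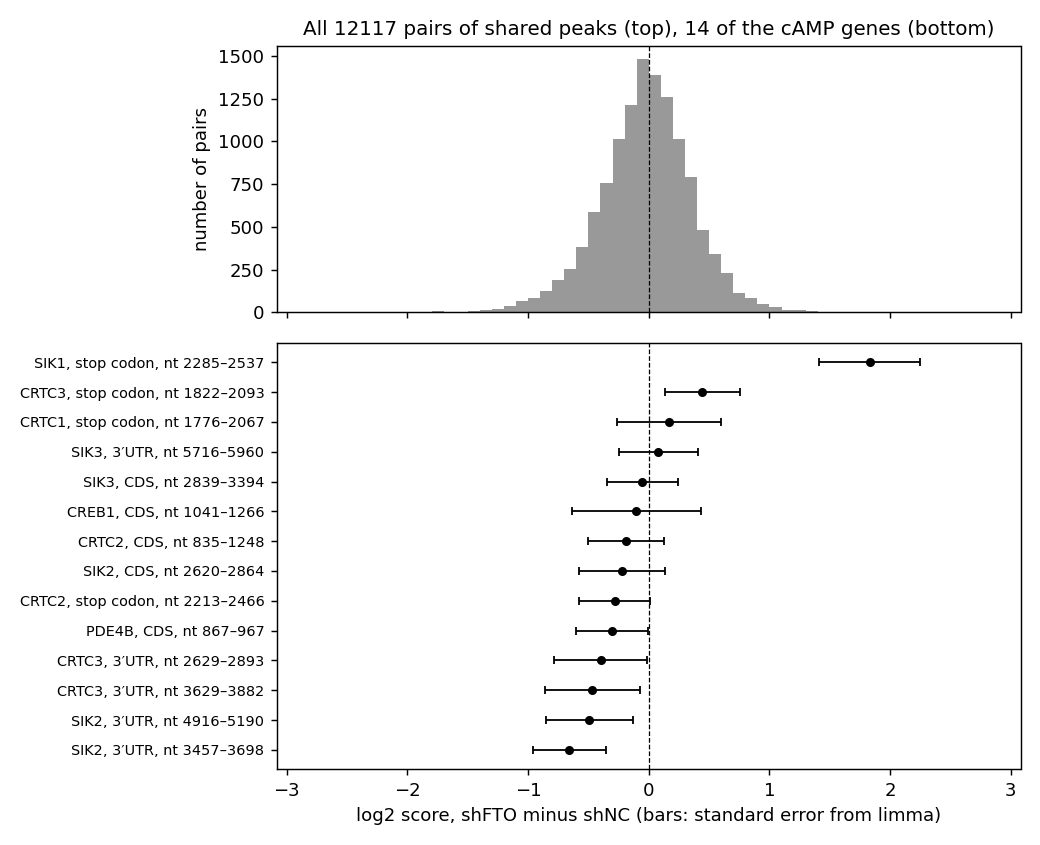
Difference in log2 score, shFTO minus shNC, as a histogram over all 12117 pairs of shared peaks (top) and as points with standard errors from limma for the 14 pairs of the cAMP genes (bottom). The SIK1 stop-codon peak stands at 1.83 and the other 13 pairs lie between −0.66 and 0.44.

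Among the kinases, SIK1 had the score with the widest difference between the groups. SIK1 is the member of the family whose transcription is itself induced by CREB, and it was represented by 1 peak across its stop codon (isoform NM_173354_2, gene at chr21:43414483-43427131). The score was 4.48 and 3.28 in the shNC replicates and 5.47 and 5.95 in the shFTO replicates. Both shFTO values were above both shNC values, and the shNC replicates were farther apart than the shFTO replicates. The means were 3.88 ± 0.85 and 5.71 ± 0.34 (SD, n = 2), at the 82.3 and 98.4 percentiles of their lists. The gene was chosen with its score known, and intervals here and below are for single pairs, not adjusted over all pairs. The interval and rank that follow are therefore description only. The difference was 1.83 (SE 0.42, 95% interval 0.89 to 2.77, limma with Benjamini-Hochberg adjusted p = 0.566), the 12th highest of the 12117 pairs. Over 11 alternatives of the processing it ran from 1.23 without shNC replicate 2 to 2.43 without shNC replicate 1, with an adjusted p from 0.130 to 0.9999. The peak covered nearly the same bases in both groups, nt 2285–2537 in shNC and 2298–2539 in shFTO, and held the site shown above. The GENCODE annotation also carries a copy of SIK1 at chr21:6111131-6123778 on the plus strand that it marks as an artefact of duplication in the assembly, and the SIK1 window occurs 2 times on the chromosome. The isoform carries a suffix in the lists whose meaning is not given. Whether reads of SIK1 were divided between the copies was not tested.

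SIK2, the kinase that in mouse melanocytes restrains CRTC1 and MITF transcription, had 4 peaks in shNC and 3 in shFTO (isoform NM_015191, gene at chr11:111602449-111730855). The peak at the end of the coding sequence, with 2 GGACU sites, scored 4.65 and 4.08 in shNC and 3.78 and 4.51 in shFTO, and the groups overlapped. The 3′UTR peak at nt 3457–3698 scored 3.97 and 3.60 in shNC and 2.99 and 3.27 in shFTO. Here both shFTO replicates were below both shNC replicates, with means of 3.79 ± 0.26 and 3.13 ± 0.20 (SD, n = 2). The difference of −0.66 (SE 0.30, 95% interval −1.34 to 0.02, limma with Benjamini-Hochberg adjusted p = 0.832) was the lowest of the set. Set against the coding peak of the same mRNA, which removes any change in the median window, this peak stood at −0.58 ± 0.14 in shNC and −1.02 ± 0.32 in shFTO (SD, n = 2). A more distant 3′UTR peak at nt 4916–5190 had means of 2.99 ± 0.60 and 2.50 ± 0.28, with overlapping replicates. The last, at nt 5521–5630, was in the shNC list only and was the weakest SIK2 peak, at 1.53 and 1.54.

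SIK3, the largest of the kinases, had its main peak in coding sequence, well upstream of the stop codon (isoform NM_025164, gene at chr11:116843402-117098428). It was long, nt 2839–3394 in shNC, and its score was 4.65 and 4.92 in shNC and 4.59 and 4.87 in shFTO. The means of 4.78 ± 0.19 and 4.73 ± 0.20 (SD, n = 2) differed by −0.05 with a 95% interval of −0.72 to 0.61. The 3′UTR peak at nt 5716–5960, with no GGACU, likewise overlapped between groups, at 4.34 and 3.66 in shNC and 3.97 and 4.18 in shFTO. A weaker 3′UTR peak at nt 4461–4675, with 2.27 and 2.43 in the shNC replicates, had no partner in shFTO. In all, 2 of 20 shNC peaks of the set had no overlapping shFTO peak, this one and that of SIK2, and the share over all shNC peaks was 14.6%.

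**Figure D3:**
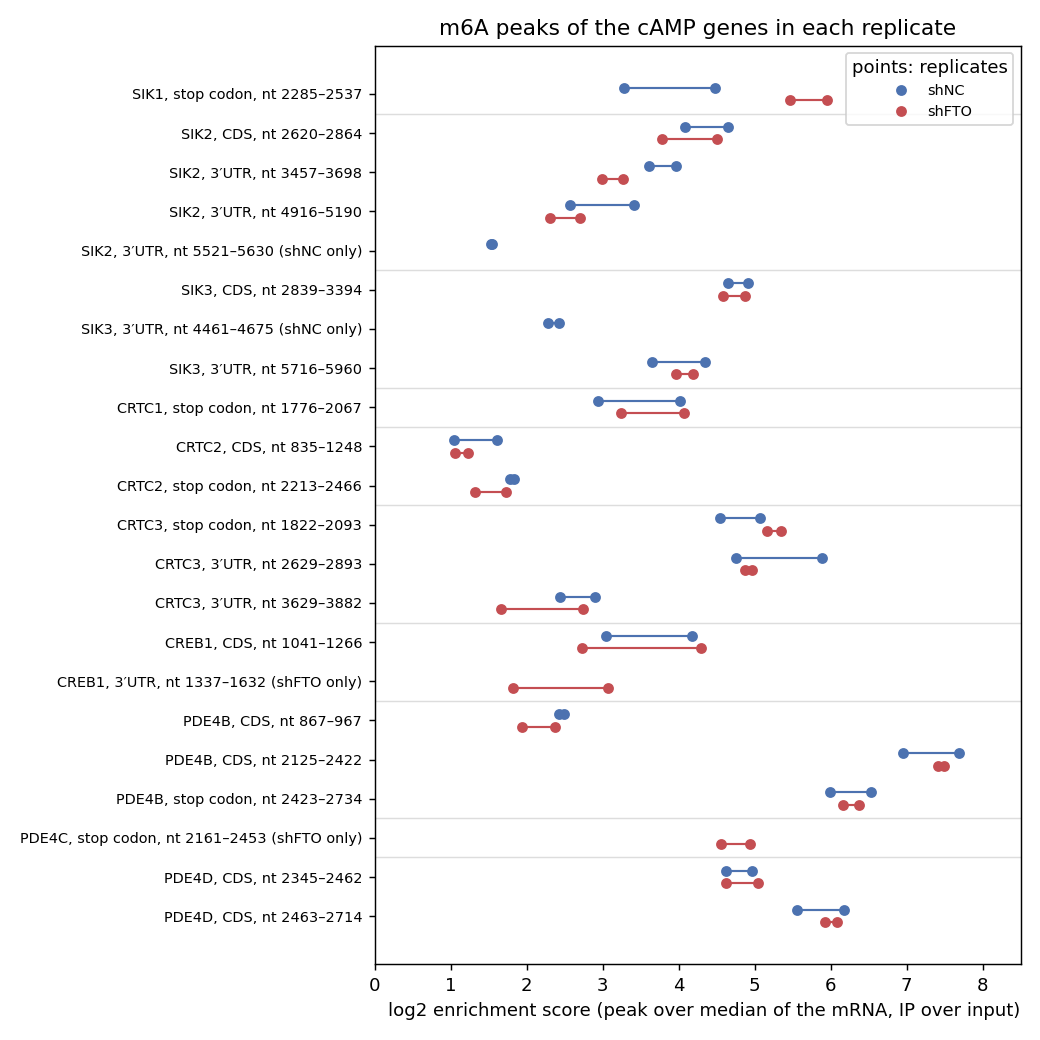
Log2 enrichment score of each peak of the 10 genes in each replicate (x axis), with shNC in blue and shFTO in red, each line joining the replicates of a group and each row giving the shNC position in nt where there is one. In the top row the SIK1 replicates lie at 3.28 and 4.48 in shNC and at 5.47 and 5.95 in shFTO, and in most other rows the groups overlap.

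The scores of the coactivators were farther apart between paralogs than between groups. CRTCs bind CREB and recruit the transcription machinery once they enter the nucleus. CRTC3, the paralog with 3 peaks, was high in both groups (isoform NM_022769, gene at chr15:90529923-90645345). Its stop-codon peak scored 4.55 and 5.07 in shNC and 5.16 and 5.35 in shFTO, so that both shFTO replicates were above both shNC replicates, by a small margin. The difference was 0.44 (SE 0.31, 95% interval −0.26 to 1.15, limma with Benjamini-Hochberg adjusted p = 0.935). Its 3′UTR peaks went the other way in the mean, with overlapping replicates. The peak at nt 2629–2893 had 5.32 ± 0.79 and 4.92 ± 0.06, and that at nt 3629–3882 had 2.67 ± 0.32 and 2.20 ± 0.76 (SD, n = 2). Set against the peak at nt 2629–2893 of the same mRNA, the stop-codon peak stood at −1.33 and 0.31 in the shNC replicates and at 0.19 and 0.47 in the shFTO replicates, which overlapped.

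CRTC1 had a single peak, across its stop codon (isoform NM_001098482, gene at chr19:18683680-18782333), over a site at the same distance from the stop codon as that of CRTC3. It scored 4.02 and 2.94 in shNC and 3.24 and 4.07 in shFTO, so the order of the replicates was opposite in the groups and the ranges were nearly the same. CRTC2, the paralog best known for its part in hepatic gluconeogenesis, had the lowest stop-codon scores of the set in both groups (isoform NM_181715, gene at chr1:153947675-153958612). Its stop-codon peak scored 1.78 and 1.84 in shNC and 1.32 and 1.73 in shFTO, with both shFTO replicates below both shNC replicates, the higher of them only just. Its coding peak, the CRTC2 peak with a GGACU, was the lowest peak of the set in both groups, with means of 1.33 ± 0.40 and 1.14 ± 0.12 (SD, n = 2). In shNC, the stop-codon peaks of the family thus ran in the order CRTC3 (4.81 ± 0.37), CRTC1 (3.48 ± 0.76) and CRTC2 (1.81 ± 0.04). In each group the lower CRTC3 replicate was above the higher CRTC1 replicate, and the lower CRTC1 replicate above the higher CRTC2 replicate. The scores of different mRNAs are each relative to their own median window.

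CREB1, the factor to which the CRTCs bind, had a peak whose bounds differed between the lists (isoform NM_134442, gene at chr2:207529962-207605988). In shNC it ended in coding sequence at nt 1266, and in shFTO it ran over the stop codon to nt 1336, where a second peak followed without a gap to nt 1632. The site shown above lies in the longer shFTO peak and outside the shNC peak. The scores overlapped, with 3.05 and 4.18 in shNC and 4.29 and 2.73 in shFTO, and the difference of −0.10 ran from −0.88 without shFTO replicate 1 to 0.68 without shFTO replicate 2. The adjoining 3′UTR peak, in shFTO only, scored 3.07 and 1.82, so its replicates were 1.25 apart. CREB1 thus had the widest replicate spread among the stop-codon peaks of the set, with an SD of 1.10 in shFTO.

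The phosphodiesterases carried the highest scores of the set. PDE4B, the isoenzyme prominent in inflammatory cells, had abutting peaks over its last exon that were among the strongest of the whole data (isoform NM_001037340, gene at chr1:65792510-66374579). Its coding peak at nt 2125–2422 scored 7.69 and 6.95 in shNC and 7.41 and 7.49 in shFTO, the 5th highest mean score of all peaks in both lists. The shFTO values lay between the shNC values. The peak over the stop codon that followed it scored 6.53 and 5.99 in shNC and 6.38 and 6.17 in shFTO, and the same held there. In each list, 1 of these abutting peaks overlapped 2 peaks of the other list, so none of them was among the 12117 pairs. When peaks were paired instead by at least 0.5 of the length of both, the differences were 0.13 with a 95% interval of −0.61 to 0.88, and 0.02 with an interval of −0.69 to 0.72. The stop-codon peak stood below the coding peak by a like amount in both groups, at −1.06 ± 0.14 in shNC and −1.18 ± 0.20 in shFTO (SD, n = 2). A weak peak far upstream, at nt 867–967, scored 2.49 and 2.42 in shNC and 2.37 and 1.94 in shFTO, with both shFTO values below both shNC values.

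PDE4D, the cAMP phosphodiesterase with the most splice forms in the family, also had abutting peaks, both in coding sequence and with no GGACU in either (isoform NM_001197220, gene at chr5:58969038-60522128). The stronger, at nt 2463–2714, scored 5.56 and 6.18 in shNC and 6.09 and 5.93 in shFTO. The weaker, at nt 2345–2462, scored 4.62 and 4.96 in shNC and 5.05 and 4.62 in shFTO. Both overlapped between groups, and their differences in the pairing by 0.5 of the length were 0.14 with a 95% interval of −0.58 to 0.86, and 0.04 with an interval of −0.66 to 0.74.

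PDE4C had no peak in shNC and 1 in shFTO, across its stop codon at nt 2161–2453, with both of its GGACU sites (gene at chr19:18207965-18255362). It scored 4.94 and 4.56 in the shFTO replicates, a mean of 4.75 ± 0.26 (SD, n = 2) and rank 1227 of 18551. A gene can be absent from a list because no window passed the thresholds or because too little of its mRNA was sequenced. These cannot be told apart here, so no difference in m6A is stated. Genes with a peak in shFTO only were 7.76% of all genes in either list and 1 of the 10 here, and genes with a peak in shNC only were 5.98% and 0 of the 10. By peak, 2 of 20 shFTO peaks of the set had no overlapping shNC peak, in PDE4C and the 3′UTR of CREB1, where the share of all shFTO peaks was 14.2%.

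For the rest of the pathway, 9 lists with 83 further genes were compiled from receptors to transcription targets. Peaks were listed for 59 of these genes in shNC and for 61 in shFTO, with 59 in both. AKAP6, an anchor of protein kinase A, was listed in shFTO only, with 2.93 and 2.15 at its peak in coding sequence. The lists gave 86 pairs of shared peaks with a median difference of −0.02, and 0 passed an adjusted p of 0.05 in limma after Benjamini-Hochberg adjustment. At an unadjusted p of 0.05, 3 were higher and 3 lower in shFTO, beside 2.3% and 3.68% of all pairs.

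At the top of the pathway, receptors and G proteins had peaks in 6 of 10 genes in both groups, and their 9 pairs had a median difference of 0.26, with none past the unadjusted threshold. The 3′UTR peak of MC1R, the receptor named above, scored 1.32 and 1.58 in shNC and 1.86 and 1.71 in shFTO. Adenylyl cyclases, which make cAMP, had peaks in 6 of 10 genes in both groups and a median of −0.09 over 9 pairs. Subunits and inhibitors of protein kinase A had peaks in 4 of 9 genes, with a median of 0.31 over 5 pairs, and 0 of these 14 pairs passed the unadjusted threshold. No peak was listed for PRKACA, a catalytic subunit. EPAC exchange factors, which bind cAMP without protein kinase A, and their RAP1 substrates had peaks in 1 of 4 genes, with a difference of 0.07 in 1 pair.

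The other cAMP phosphodiesterases, the nearest relatives of the PDE4 genes, had peaks in 6 of 10 genes and 10 pairs with a median of −0.58, 0 of them higher and 2 lower at an unadjusted p of 0.05, where the shares over all pairs were 2.3% and 3.68% and the median −0.01. The stop-codon peak of PDE3B, the phosphodiesterase through which insulin acts in fat cells, scored 4.69 and 4.60 in shNC and 3.55 and 3.43 in shFTO. Its groups did not overlap, and the difference was −1.16 (limma with Benjamini-Hochberg adjusted p = 0.640). The list also holds PDE4DIP, a scaffold protein that binds PDE4D and is not itself a phosphodiesterase. Its 5 pairs make up much of the list and ran from −0.95 to −0.07. The 2 lower pairs were the stop-codon peak of PDE3B and the PDE4DIP peak at nt 4452–4697, with a difference of −0.91. PDE4A, the remaining PDE4 gene with a peak, had its strongest in coding sequence, at 4.86 ± 0.26 in shNC and 4.65 ± 0.06 in shFTO (SD, n = 2).

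Regulators and substrates of the SIK kinases, a list that includes their activator STK11 (LKB1), had peaks in 9 of 10 genes and a median difference of −0.03 over 9 pairs. The CREB family and its coactivators had peaks in 9 of 9 genes and a median of −0.16 over 13 pairs, 1 of them higher at an unadjusted p of 0.05. CREM, a CREB relative with repressor forms that cAMP induces, scored 2.82 and 2.92 at its stop codon in shNC and 5.07 and 3.16 in shFTO. Its shFTO replicates were both higher and lay 1.91 apart. Targets of CREB and MITF had peaks in 10 of 10 genes and a median of −0.04 over 10 pairs, 0 past the unadjusted threshold. The coding peak of MITF scored 6.01 and 5.88 in shNC and 5.87 and 4.99 in shFTO, with the higher shFTO value just below the shNC values. The start-codon peak of PER1, a circadian gene that CREB induces, had a difference of 0.78 that rested on 1 shFTO replicate, with 1.45 and 1.27 in shNC and 1.52 and 2.76 in shFTO. The stop-codon peak of ATF1, a close CREB1 relative, had a difference of −0.71. A-kinase anchors gave 20 pairs with a median of 0.10. At an unadjusted p of 0.05, 2 of them were higher and 1 lower, where 2.3% and 3.68% of all pairs were. The 3′UTR peak of AKAP7 had the largest difference of the 86 pairs, with 2.87 and 2.42 in shNC and 3.97 and 4.44 in shFTO. The difference was 1.56 (limma with Benjamini-Hochberg adjusted p = 0.539). Its bounds differed between the lists, nt 1261–1390 in shNC and nt 1249–1508 in shFTO.

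**Figure D4:**
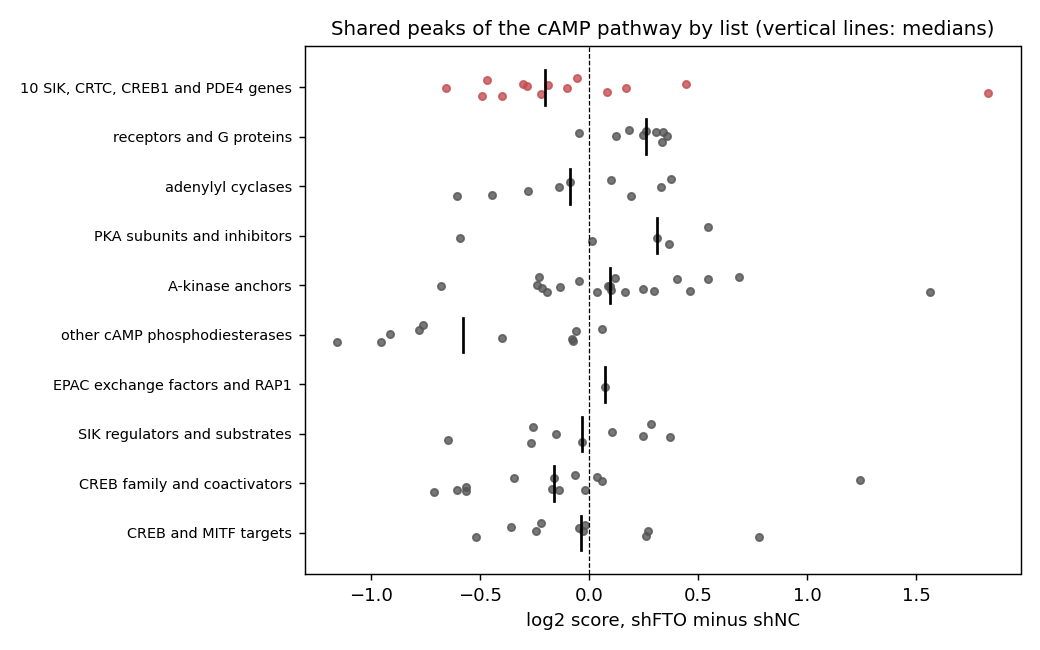
Difference in log2 score, shFTO minus shNC (x axis), of each pair of shared peaks, for the 10 genes (red) and the 9 lists of other cAMP pathway genes (grey), with a vertical line at the median of each. Medians of the lists run from −0.58 for the other cAMP phosphodiesterases, a list that includes PDE4DIP, to 0.31 for protein kinase A subunits and inhibitors. Each point is a pair, several of which can share a gene.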

How the data were processed

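m6A-seq of shNC and shFTO Mel624 cells was read from 1 peak list per group. According to the methods, adapters were removed with cutadapt, reads were aligned to hg38 with TopHat2 2.0.14 and set on the longest RefSeq isoform, and windows enriched in IP over input by a Fisher exact test were merged into peaks. The rule that merged the replicates of a group into a single list was not stated. The authors deposited a log2 enrichment score of each peak for each replicate, relative to the median window of the mRNA, and no counts. Scores were used as deposited. Pairs of peaks were fitted with limma 3.58.1 (R 4.3.3, lmFit and eBayes, group as the only term) over all 12117 pairs. The fit was tested on simulated data made from these pairs, where 2, 11, 32 and 40 of 50 changed pairs were called at log2 changes of 1, 2, 3 and 4, with 1 false call. Regions and GGACU sites were those of the lists, and the sequences of the sites were read from hg38 through GENCODE version 44. The CRTC2 stretch without GGACU was taken from its GENCODE transcript only. Of the 16 windows, 15 were read from hg38 unbroken and the other, in CRTC2, spans a junction and is not printed. Named pathway genes were taken from those with the largest differences in each direction, those listed in 1 group only and those at the head of each list. A gene that this rule takes in is not reported here. The genes and lists were chosen with earlier results of these data known. Python 3.11.15, pandas 2.3.3, numpy 2.4.6 and matplotlib 3.10.9 served for pairing, tables and figures.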

Additional observations from a re-analysis of the deposited data

How the results depend on the processing

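The median difference of the set stayed between −0.26 and −0.06 when each replicate was left out in turn, and between −0.20 and −0.08 under the other alternatives, which were a shared length of at least 0.5, a mean log2 score of at least 2, a score of at least 1 in both replicates, log2(score + 1), centring of each library, limma with an intensity trend and the replicate block. Without 1 replicate, 0 to 11 of all pairs were called at an adjusted p of 0.05 by limma with Benjamini-Hochberg adjustment (0 without shNC replicate 1, 6 without shNC replicate 2, 7 without shFTO replicate 1 and 11 without shFTO replicate 2), and none was of the set. At an unadjusted p of 0.05, 1 to 2 pairs of the set passed, 1 without shFTO replicate 2 and 2 without any other. In these fits a replicate left alone is taken to vary as the other group does. On the log2(score + 1) scale 2 pairs of the set passed the unadjusted p, SIK1 and the 3′UTR peak of SIK2. Of all pairs, 279 were higher and 446 lower at an unadjusted p of 0.05. Without shFTO replicate 2 the order turned, with 320 higher and 298 lower, and without shFTO replicate 1 there were 306 and 618. With the replicate block 182 were higher and 320 lower. A mean log2 score of at least 2 in both groups left 7676 pairs, of which 180 were higher and 258 lower. The labels do not say whether same-numbered replicates were handled together. The differences between replicates 1 and 2 in shNC and in shFTO correlated at −0.27 over the pairs, while the main fit takes the replicates as independent. At a mean score of at least 2, 8 of the 10 genes kept a shNC peak and 9 a shFTO peak. With 2 replicates a group and unknown depth, small differences in score cannot be resolved. Larger ones can be missed as well. In the simulated data 2 of 50 pairs were called at a log2 change of 1 and 11 of 50 at 2.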
